A study of Homo sapiens with 9 samples.

Results

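Amino acids enter and leave cells, and move between cell compartments, through carriers of several solute carrier (SLC) gene families. The genes described here are those whose symbol puts them in the SLC1, SLC3, SLC6, SLC7, SLC36, SLC38 or SLC43 family. They numbered 56 of the 19775 genes that had a microarray probe set of their own, and each was read from the brightest probe set annotated to that gene alone. Of these, 42 were bright enough to be tested and 14 were not. The SLC6 family also carries neurotransmitters, creatine and osmolytes, so membership by symbol takes in carriers whose main substrate is not an amino acid.

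The samples were HepG2 cells, an established human hepatocellular carcinoma line that retains many liver functions. Small interfering RNA (siRNA) was used against HNF4alpha and HNF4gamma together, a pair of nuclear receptor transcription factors of which HNF4alpha is a main regulator of liver genes. The groups were the double knockdown named knockdown1, the double knockdown named knockdown2 and the control, with 3 arrays each. What distinguishes knockdown1 from knockdown2 and what the control cells received is not in the labels, nor is whether replicates were separate cultures. A p-value here therefore reflects array-to-array spread, part or all of which could be technical. The comparisons ask which carrier messages differ from control when both factors are targeted, and whether the knockdowns differ from each other.

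Many of these carriers share work. A heavy chain of the SLC3 family brings an SLC7 light chain to the cell surface and is bonded to it, while the light chain does the transport. Sodium-driven carriers of the SLC1, SLC6 and SLC38 families concentrate amino acids inside the cell, and exchangers then trade them for others. In the liver, uptake of glutamine, alanine and the cationic amino acids feeds urea synthesis, glucose synthesis and glutathione synthesis, and carriers on the lysosome membrane take part in amino acid sensing.

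Signals are the deposited array intensities, scaled here so that every array had a median of 14.1 over its probe sets. The deposited medians ran from 12.3 to 15.7. Changes are differences of log2(scaled signal + 1.41), so the change of a dim gene is understated. They were tested with limma over 13056 genes, and a change was called at a Benjamini-Hochberg adjusted p under 0.05. HNF4G, the gene of HNF4gamma, had scaled signals of 14.4, 23.5 and 17.4 in knockdown1 and 41.9, 24.4 and 28.6 in knockdown2, against 45.2, 47.9 and 44.9 in control. Its log2 change was -1.28 (SE 0.28, limma adjusted p = 0.000538) in knockdown1 and -0.56 (SE 0.28, limma adjusted p = 0.142) in knockdown2, so on this probe set the knockdown2 arrays were lower without passing the test. A dimmer HNF4G probe set was called lower in knockdown1 (-2.20, limma adjusted p = 0.0295) and in knockdown2 (-2.48, limma adjusted p = 0.0173), with all 6 knockdown arrays below the common median, so that it passed the filter through control alone. HNF4A was not analysed here. Of the hepatocyte markers, 9 of 9 passed the filter, with summed signals of 31621 to 38241 in knockdown1 and 35003 to 37529 in knockdown2, against 37359 to 45126 in control. Over both knockdowns TF was called lower (-0.76, limma adjusted p = 8.21e-06), as was APOA1 (-0.71, limma adjusted p = 1.25e-05). TTR was also called lower (-0.67, limma adjusted p = 0.00256), and the other hepatocyte markers were not called there. FGB was called lower in knockdown1 (-0.45, limma adjusted p = 0.00749). The leukocyte markers PTPRC and CD3E were below the filter, while the summed biliary markers KRT7 and KRT19 ran from 689.5 to 980.9 in knockdown1 and from 588.4 to 730.6 in knockdown2, against 173.7 to 232.8 in control. Of these, KRT19 rose by 2.27 (SE 0.14, limma adjusted p = 1.4e-12) while KRT7, at means of 59.3 in knockdown1 and 51.8 in knockdown2, against 57.7 in control, was not called (-0.08, limma adjusted p = 0.786). The part of KRT19 in the carrier results was not tested. Of the other markers, 3 of 5 fibroblast genes passed, with summed signals of 89.02 to 115.9 in knockdown1 and 85.84 to 119.6 in knockdown2, against 70.16 to 109.8 in control. Endothelial PECAM1 and leukocyte CD14, the members of their lists that passed, were at 67.40 to 75.72 and 1.168 to 2.820 in knockdown1 and at 72.18 to 88.85 and 1.140 to 9.786 in knockdown2, against 46.01 to 53.99 and 16.74 to 31.88 in control. PECAM1 was called higher over both knockdowns (0.59, limma adjusted p = 0.00373). CD14 was at -2.66 there, but it passed the filter through control alone, so that value is a description. Fewer cells that express a gene and less RNA per cell cannot be told apart in these bulk samples.

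Among the 42 tested carriers, 24 changed in at least 1 of 4 comparisons (57.1%, against 49.5% of all tested genes) and 18 in none. With both knockdowns averaged against control, 7 rose (16.7% of the carriers, against 14.7% of all tested genes) and 11 fell (26.2%, against 17.9%). In knockdown1 6 rose (14.3%, against 14.3%) and 9 fell (21.4%, against 19.0%). In knockdown2 5 rose (11.9%, against 13.7%) and 12 fell (28.6%, against 13.9%). The carriers' share stood farthest from the all-gene share for falls in knockdown2, and the shares that rose against control lay near it. Between the knockdowns, 9 carriers were higher in knockdown1 than in knockdown2 (21.4%, against 10.5%) and 5 were lower (11.9%, against 16.1%). The median log2 change of the carriers was -0.14 over both knockdowns, against -0.01 for all tested genes. It was 0.05 in knockdown1 (all genes -0.01) and -0.22 in knockdown2 (all genes 0.01). All 6 knockdown arrays were above all 3 control arrays for 4 carriers (9.52%, against 9.76% of tested genes) and below them for 7 (16.7%, against 11.2%). SLC7A10, SLC6A9 and SLC6A12 would not have passed the filter without control. Each is among the falls in knockdown1. SLC7A10 and SLC6A9 are among the falls over both knockdowns and among these 7, and SLC7A10 among the falls in knockdown2. SLC6A14 would not have passed without its knockdown1 arrays. It is among the rises over both knockdowns and in knockdown1, and among those higher in knockdown1 than in knockdown2. The shares that include these carriers are a description. The comparisons of each knockdown with control share the same 3 control arrays.

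The split between higher and lower depended on how arrays were scaled. In knockdown1, 11 carriers rose and 10 fell with the intensities as deposited, against 6 and 9 after scaling. Over both knockdowns, 11 rose and 11 fell when arrays were centred on the tested genes, against 7 and 11. The all-gene counts moved alike, to 3105 higher and 2628 lower in knockdown1 as deposited, against 1866 and 2485 after scaling. Between the knockdowns they were 2803 higher and 2104 lower in knockdown1 as deposited, against 1368 and 2105. Centring gave 3050 higher and 2482 lower genes over both knockdowns, against 1916 and 2340.

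**Figure D1:**
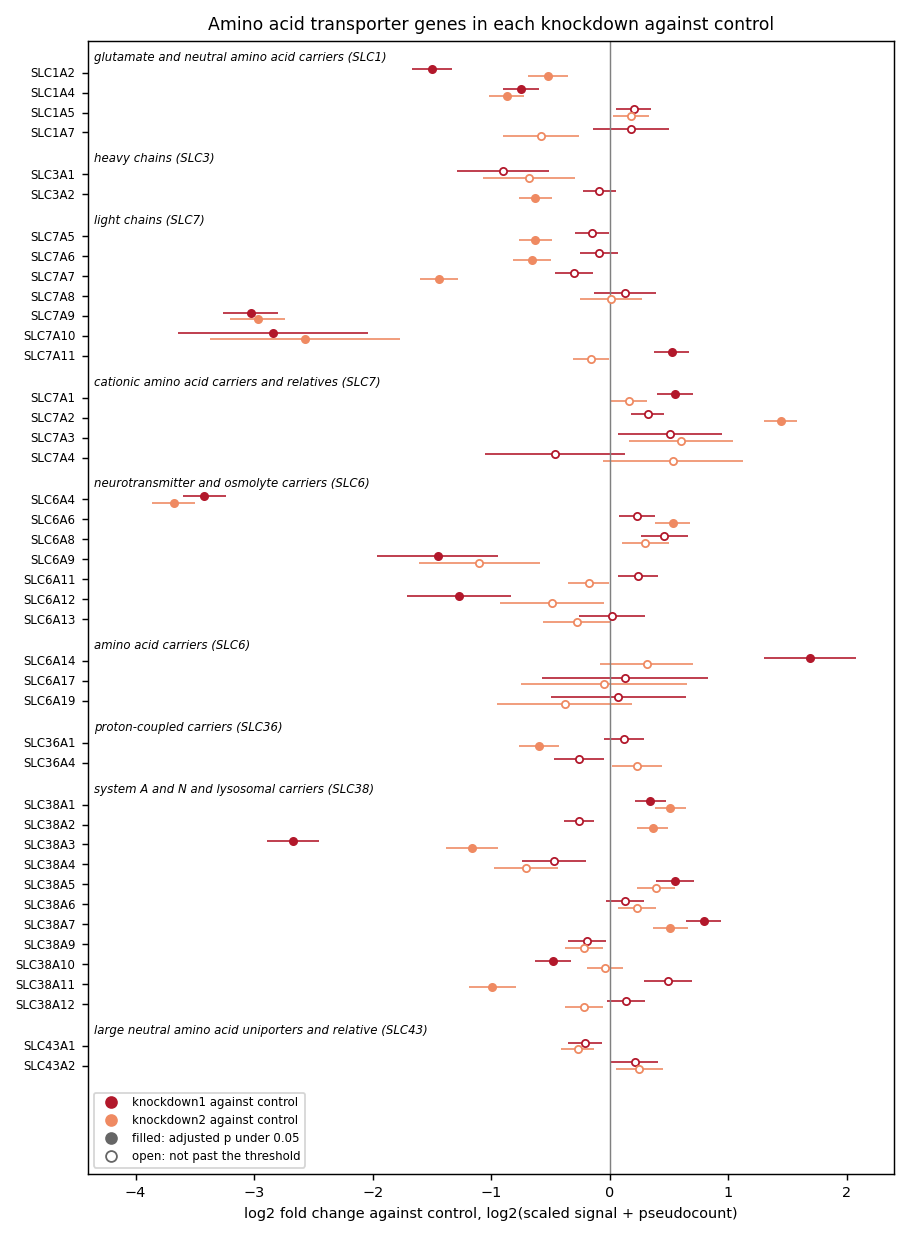
Log2 fold change of the 42 tested carriers in knockdown1 (dark red) and knockdown2 (orange) against control, grouped by family or role; points are limma estimates, bars are standard errors, and filled points have an adjusted p under 0.05. SLC6A4, SLC7A9 and SLC7A10 lie lowest in both knockdowns, and the points of SLC38A3, SLC1A2, SLC7A2, SLC7A7 and SLC38A11 lie apart between the knockdowns.

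The lowest values relative to control belonged to a serotonin carrier and a cystine carrier, and both knockdowns showed them about equally. SLC6A4 encodes the serotonin transporter, which returns serotonin to cells that release it. Its scaled signals were 29.0, 33.0 and 25.5 in knockdown1 and 23.6, 22.8 and 25.6 in knockdown2, against 321.7, 290.7 and 363.7 in control. No knockdown array came near the control arrays, and the knockdowns lay close together. The log2 change was -3.42 (SE 0.18, limma adjusted p = 7.56e-14) in knockdown1 and -3.68 (SE 0.18, limma adjusted p = 2.14e-14) in knockdown2. These are signals 10.7-fold and 12.8-fold lower than in control. A further, dimmer probe set of SLC6A4 fell by 3.88 over both knockdowns (limma adjusted p = 8.47e-07).

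SLC7A9 encodes the light chain that takes up cystine and the cationic amino acids in kidney and intestine, and its inherited loss causes cystinuria. It measured 21.0, 16.3 and 19.5 in knockdown1 and 19.1, 22.1 and 18.2 in knockdown2, against 214.3, 121.7 and 169.7 in control. The knockdown arrays lay just above the array median of 14.1. Its log2 change was -3.03 (SE 0.23, limma adjusted p = 4.39e-11) in knockdown1 and -2.97 (SE 0.23, limma adjusted p = 1.32e-10) in knockdown2, or 8.17-fold and 7.84-fold lower than in control. The partner heavy chain of SLC7A9, SLC3A1, which is also mutated in cystinuria, was dim. SLC3A1 had signals of 28.4, 7.5 and 15.5 in knockdown1 and 15.8, 22.7 and 15.6 in knockdown2, against 27.8, 24.1 and 37.5 in control. The value of -0.79 for the mean of the knockdowns (SE 0.34, limma adjusted p = 0.0756) did not pass the test, and 1 knockdown1 array lay within the control range.

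SLC7A10 encodes a light chain for small neutral amino acids, D-serine among them. Its signals were 1.5, 3.1 and 2.8 in knockdown1 and 1.6, 6.8 and 2.6 in knockdown2, against 25.1, 35.1 and 19.8 in control. All 6 knockdown arrays were below the array median and all 3 control arrays were above it. SLC7A10 was the 1 carrier that passed the filter through a single group, so it was tested because its control signal was high, and it was not tested when any control array was left out or under the stricter filter. Its fitted log2 differences, -2.84 in knockdown1 and -2.57 in knockdown2, are therefore a description, as are its calls among the falls counted above. Without any filter the test gave -2.84 in knockdown1 (limma adjusted p = 0.000503) and -2.57 in knockdown2 (limma adjusted p = 0.00163). With the array median as pseudocount the filtered values were -1.28 and -1.19.

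These 3 genes had the largest log2 differences over both knockdowns at the pseudocount used, although with the array median as pseudocount SLC38A3 (-1.56) lay below SLC7A10 (-1.24). The 250 bases before their RefSeq transcription start (GRCh38.p14, all on the minus strand) are printed to show where the CAAAG core, found in many HNF4 binding sites, occurs in them. The windows are chr17:30235698-30235947 for SLC6A4, chr19:32869768-32870017 for SLC7A9 and chr19:33225851-33226100 for SLC7A10, and the capitals mark CAAAG or its reverse complement CTTTG.
SLC6A4 promoter: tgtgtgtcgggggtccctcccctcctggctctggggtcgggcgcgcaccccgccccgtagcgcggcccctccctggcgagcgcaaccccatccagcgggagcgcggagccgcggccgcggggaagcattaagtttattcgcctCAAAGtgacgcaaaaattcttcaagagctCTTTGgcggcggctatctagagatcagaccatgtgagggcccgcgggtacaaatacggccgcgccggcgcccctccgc
SLC7A9 promoter: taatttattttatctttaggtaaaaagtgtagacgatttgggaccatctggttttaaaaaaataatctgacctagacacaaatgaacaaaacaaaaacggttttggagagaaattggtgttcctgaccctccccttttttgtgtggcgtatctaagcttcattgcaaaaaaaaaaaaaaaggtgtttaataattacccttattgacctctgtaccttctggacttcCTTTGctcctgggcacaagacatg
SLC7A10 promoter: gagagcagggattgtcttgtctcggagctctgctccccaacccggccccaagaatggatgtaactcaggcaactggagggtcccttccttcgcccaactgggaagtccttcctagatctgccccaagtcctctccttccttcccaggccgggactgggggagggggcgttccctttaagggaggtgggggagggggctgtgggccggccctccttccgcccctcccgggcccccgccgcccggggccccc
SLC6A4 held the core 107 bases before the start on the sense strand and 78 bases before it on the antisense strand. SLC7A9 held 1 core, on the antisense strand 24 bases before the start, and no core was found in the SLC7A10 window.

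The RefSeq table gave a promoter window, of 250 bases before and 50 after the start, for 42 of the 56 genes. CAAAG, searched on both strands, was in 20 of these windows (47.6%), against 47.5% of all 35116 promoters in the table and 39.5% of the 10521 promoters of tested genes. Of the 9 carriers that fell over both knockdowns and had a window, 5 held it (55.6%). The longer CAAAGNNCA, which contains CAAAG, was in 2 of the 42 windows (4.76%), against 5.28% of all promoters and 3.93% of those of tested genes. Its holders were SLC38A2 and SLC38A4, and none of the 9 carriers that fell held it. TGATGCAA, a form of the element bound by the stress factor ATF4 and its partners, was in 1 window (2.38%), that of SLC1A3, against 0.866% of all promoters and 0.57% of those of tested genes. SLC1A3 was below the filter. A match describes the letters of a window and says nothing of binding.

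SLC38A3 and SLC1A2 also fell in both knockdowns, and further in knockdown1 than in knockdown2. SLC38A3 encodes the system N carrier that moves glutamine, histidine and asparagine across the liver cell membrane. Its signals were 22.9, 14.4 and 21.2 in knockdown1 and 76.0, 55.2 and 44.5 in knockdown2, against 143.5, 110.0 and 137.4 in control. The groups did not overlap, with knockdown2 between knockdown1 and control. The log2 change was -2.67 (SE 0.22, limma adjusted p = 1.78e-10) in knockdown1 and -1.16 (SE 0.22, limma adjusted p = 0.000201) in knockdown2. The difference between the knockdowns, -1.51 (SE 0.22, limma adjusted p = 5.72e-06), passed the test itself.

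SLC1A2 encodes the glutamate transporter best known from astrocytes, which clears glutamate from synapses. Its signals were 145.6, 104.4 and 120.0 in knockdown1 and 258.7, 235.1 and 238.3 in knockdown2, against 344.5, 277.4 and 445.5 in control. The order of the groups was the same as for SLC38A3, again with no overlap. SLC1A2 fell by 1.50 in knockdown1 (SE 0.17, limma adjusted p = 5.08e-08) and by 0.52 in knockdown2 (SE 0.17, limma adjusted p = 0.0228). Set against each other, knockdown1 minus knockdown2 came to -0.99 (SE 0.17, limma adjusted p = 5.06e-05). The mean over its probe sets gave -0.93 in knockdown1 and -0.64 between the knockdowns, both still called. Its knockdown2 call ended under 6 of 20 alternatives, at most at an adjusted p of 0.181, among them the mean over its probe sets and leaving out control replicate 1, control replicate 3, knockdown2 replicate 2 or knockdown2 replicate 3.

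SLC1A4, an exchanger of alanine, serine and cysteine, averaged 245 ± 13.3 in knockdown1 and 226 ± 22.6 in knockdown2, against 414 ± 61.1 in control (SD, n = 3 each). It fell by 0.75 in knockdown1 (SE 0.15, limma adjusted p = 0.000285) and by 0.87 in knockdown2 (SE 0.15, limma adjusted p = 6.67e-05). Its probe sets differed over knockdown1, where the next brightest gave -0.64 (limma adjusted p = 0.00242) and the one after it 0.39 (limma adjusted p = 0.0565), and the mean over all of them was -0.20 (limma adjusted p = 0.296). In knockdown2 these probe sets gave -0.90 (limma adjusted p = 0.000133) and -0.88 (limma adjusted p = 0.000215). SLC1A5, the glutamine exchanger of many cultured tumour cells, had a log2 value of 0.19 over both knockdowns (limma adjusted p = 0.305). SLC1A7, a glutamate carrier known from the retina, likewise passed no test.

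**Figure D2:**
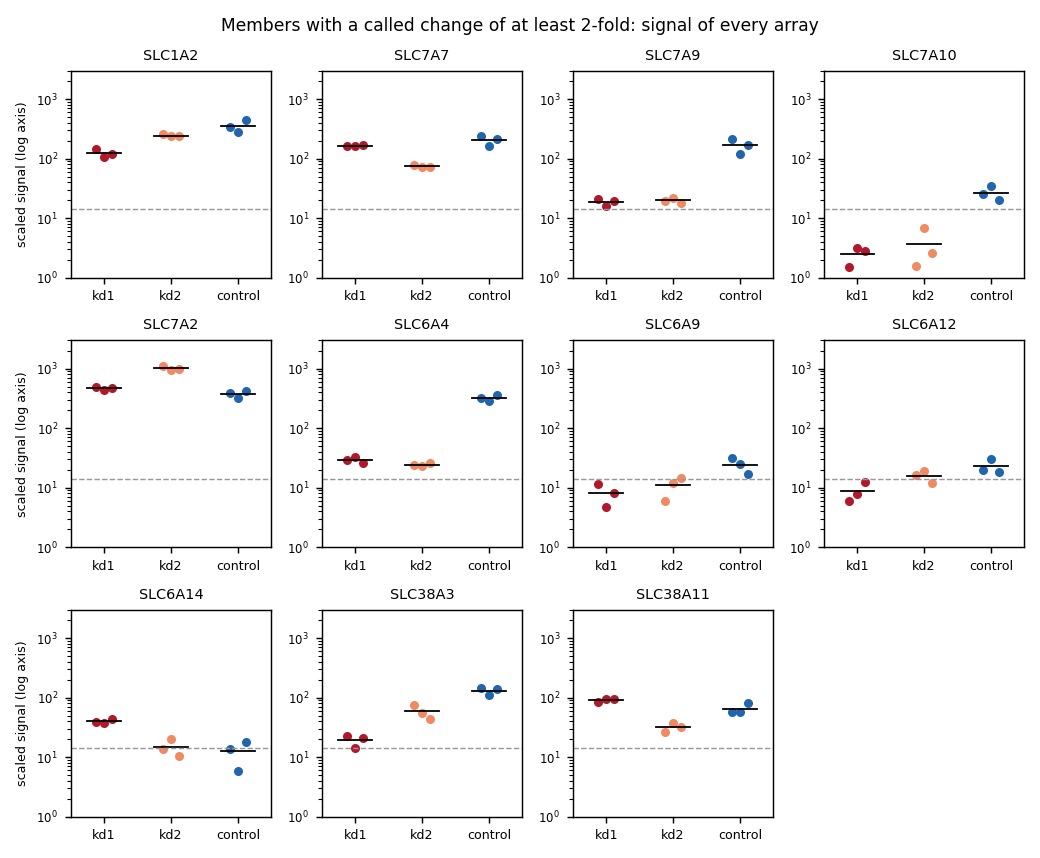
Scaled signal of every array (log axis) for the 11 carriers with a called change of at least 2-fold in some comparison; kd1 is knockdown1, kd2 is knockdown2, points are arrays, horizontal bars are group means and the dashed line is the common array median of 14.1. SLC6A4, SLC7A9 and SLC7A10 are low on all 6 knockdown arrays, while SLC7A2 and SLC7A7 stand apart on the 3 knockdown2 arrays.

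The heavy chain SLC3A2 and 3 of the light chains it carries, SLC7A5, SLC7A6 and SLC7A7, were lower in knockdown2 than in control and lower in knockdown2 than in knockdown1. SLC3A2, also an integrin partner, had signals of 552.3, 504.6 and 581.1 in knockdown1 and 397.8, 353.4 and 372.6 in knockdown2, against 587.9, 526.6 and 628.9 in control. The knockdown1 and control arrays overlapped and the knockdown2 arrays lay below both. SLC3A2 fell by 0.63 in knockdown2 (SE 0.14, limma adjusted p = 0.000985). Its log2 value in knockdown1 was -0.09 (SE 0.14, limma adjusted p = 0.677), with a sign that changed with the scaling of arrays. The difference between knockdown1 and knockdown2 was 0.54 (SE 0.14, limma adjusted p = 0.00414).

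SLC7A5, the exchanger that brings in leucine and other large neutral amino acids, had 1238.7, 1581.9 and 1649.1 in knockdown1 and 1090.1, 1020.6 and 1075.6 in knockdown2, against 1704.3, 1363.1 and 1894.1 in control. All knockdown2 arrays lay below all others. It fell by 0.63 in knockdown2 (SE 0.14, limma adjusted p = 0.00142). Knockdown1 minus knockdown2 was 0.48 (SE 0.14, limma adjusted p = 0.0136). That difference lost its call without knockdown1 replicate 2, knockdown1 replicate 3 or knockdown2 replicate 2 and without a variance trend, with an adjusted p of up to 0.0732.

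SLC7A6 and SLC7A7 export cationic amino acids in exchange for neutral ones and sodium, and inherited loss of SLC7A7 causes lysinuric protein intolerance. SLC7A7 showed the larger change, with signals of 164.4, 160.7 and 170.5 in knockdown1 and 76.7, 73.0 and 73.2 in knockdown2, against 243.4, 160.8 and 216.9 in control. The knockdown2 arrays lay far below the others, and the knockdown1 arrays reached into the control range. SLC7A7 fell by 1.44 in knockdown2 (SE 0.16, limma adjusted p = 9.19e-08), and in knockdown1 it was at -0.30 (SE 0.16, limma adjusted p = 0.163). The knockdown1 minus knockdown2 value of 1.14 (SE 0.16, limma adjusted p = 3.88e-06) is a signal 2.20-fold higher in knockdown1.

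SLC7A6 had 931.7, 825.6 and 1101.5 in knockdown1 and 543.9, 667.5 and 712.5 in knockdown2, against 969.3, 844.8 and 1254.4 in control. It fell by 0.66 in knockdown2 (SE 0.16, limma adjusted p = 0.00192), and its further probe sets fell there too, by 0.55 (limma adjusted p = 0.0163) and 0.59 (limma adjusted p = 0.00675). The difference between knockdown1 and knockdown2 was 0.57 (SE 0.16, limma adjusted p = 0.00716). It lost its call without a variance trend or without knockdown2 replicate 1, with an adjusted p of up to 0.0703. Over both knockdowns SLC3A2, SLC7A5, SLC7A6 and SLC7A7 were called lower too, at -0.36, -0.39, -0.38 and -0.87. All 4 of those calls ended when the 6 knockdown arrays were treated as 1 group, which adds the difference between the knockdowns to the error.

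SLC7A11 and SLC7A8, further light chains of SLC3A2, were not called lower in knockdown2. SLC7A11, which imports cystine for glutathione synthesis in exchange for glutamate, had 1083.8, 1044.5 and 1135.5 in knockdown1 and 766.3, 656.5 and 617.9 in knockdown2, against 890.8, 590.7 and 823.8 in control. The knockdown1 arrays were above all others, and knockdown2 overlapped control. SLC7A11 rose by 0.52 in knockdown1 (SE 0.15, limma adjusted p = 0.00798), and was at -0.16 in knockdown2 (limma adjusted p = 0.489). Its rise was 0.34 without control replicate 2, and its call ended without a variance trend (limma adjusted p = 0.0506). Knockdown1 minus knockdown2 was 0.68 (SE 0.15, limma adjusted p = 0.00102). SLC7A8, a second exchanger of neutral amino acids, averaged 33.8 ± 4.23 in knockdown1 and 31.5 ± 6.91 in knockdown2, against 31.2 ± 6.64 in control, and passed no test. Of all 7 light chains tested, SLC7A9 and SLC7A10 included, 5 fell in knockdown2 (71.4%, against 13.9% of all tested genes) and 0 rose. In knockdown1 2 fell (28.6%, against 19.0%) and 1 rose (14.3%, against 14.3%), which is near the all-gene shares. SLC7A10, which passed the filter through control alone, is in these counts and among the falls in both knockdowns, so the shares are a description. Apart from it, SLC7A5, SLC7A6, SLC7A7 and SLC7A9 fell in knockdown2, and SLC7A9 alone fell in knockdown1. Between the knockdowns, 4 were higher in knockdown1 (57.1%, against 10.5%) and 0 were lower.

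**Figure D3:**
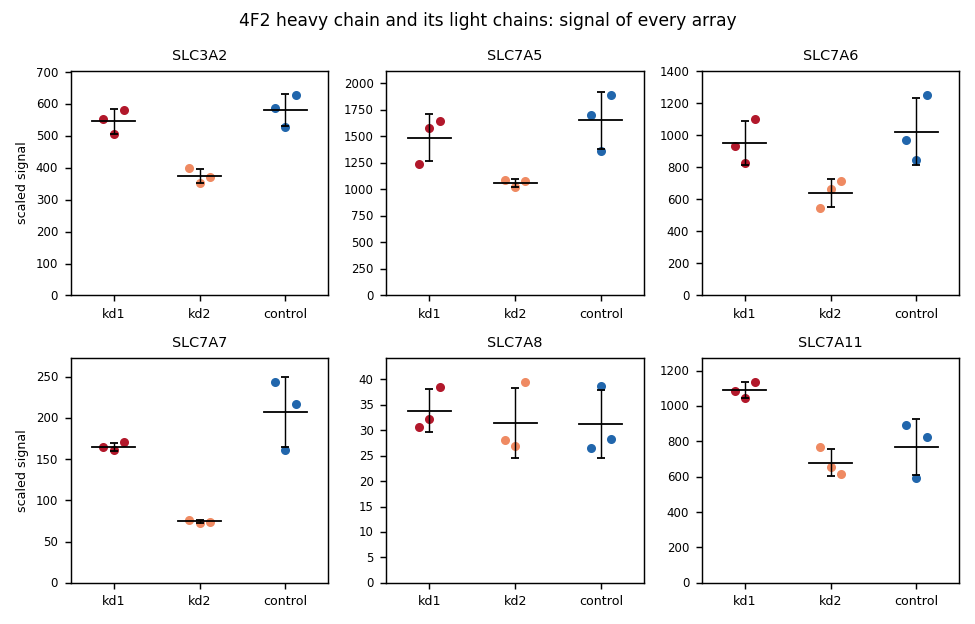
Scaled signal of every array for SLC3A2 and 5 of its SLC7 light chains, on linear axes from 0; kd1 is knockdown1, kd2 is knockdown2, points are arrays, horizontal bars are group means and error bars are SD (n = 3). SLC3A2, SLC7A5, SLC7A6 and SLC7A7 are lowest on the knockdown2 arrays, SLC7A11 is highest on the knockdown1 arrays, and the groups of SLC7A8 overlap.

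Of the 4 tested genes for cationic amino acid carriers and their relatives, the pair with bright signals, SLC7A1 and SLC7A2, rose. SLC7A2, the arginine carrier of liver that also serves macrophages, had 493.4, 443.5 and 464.7 in knockdown1 and 1123.6, 935.2 and 999.3 in knockdown2, against 382.0, 324.0 and 418.6 in control. The knockdown2 arrays stood far above the rest, and the knockdown1 arrays were above control by a small margin. SLC7A2 rose by 1.44 in knockdown2 (SE 0.14, limma adjusted p = 8.33e-09), a signal 2.72-fold that of control, and a further probe set rose by 1.17 (limma adjusted p = 0.00126). In knockdown1 the value was 0.32 (SE 0.14, limma adjusted p = 0.0836), which passed under 6 alternatives, among them the intensities as deposited, quantile normalization and the mean over probe sets. Between knockdown1 and knockdown2 the difference was -1.12 (SE 0.14, limma adjusted p = 6.31e-07).

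SLC7A1, the arginine and lysine carrier of most dividing cells, had 1576.7, 1218.5 and 1545.9 in knockdown1 and 1141.1, 1024.7 and 1129.9 in knockdown2, against 996.5, 812.7 and 1168.7 in control. All knockdown1 arrays were above all others, while knockdown2 overlapped control. SLC7A1 rose by 0.55 in knockdown1 (SE 0.15, limma adjusted p = 0.00427) and was at 0.16 in knockdown2 (limma adjusted p = 0.473), where the mean over its probe sets passed the test. The difference between knockdown1 and knockdown2, 0.39 (SE 0.15, limma adjusted p = 0.0497), was at the threshold and ended under 10 of 20 alternatives, including without knockdown1 replicate 1 or 3, any knockdown2 array or control replicate 1 (adjusted p up to 0.325). SLC7A3, a relative known from brain, and SLC7A4 were dim and passed no test.

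All 11 annotated SLC38 genes were tested, and 7 of them changed in some comparison (63.6%, against 49.5% of all tested genes). Over both knockdowns 3 rose, SLC38A1, SLC38A5 and SLC38A7 (27.3%, against 14.7%), and 1 fell, SLC38A3 (9.09%, against 17.9%). SLC38A7, which releases glutamine and asparagine from lysosomes, had 156.2, 137.9 and 143.7 in knockdown1 and 122.1, 121.6 and 115.1 in knockdown2, against 82.1, 78.9 and 89.5 in control. Every knockdown array lay above every control array. SLC38A7 rose by 0.79 in knockdown1 (SE 0.15, limma adjusted p = 0.000169) and by 0.51 in knockdown2 (SE 0.15, limma adjusted p = 0.0128), the second call ending without knockdown2 replicate 1 or 2 (adjusted p up to 0.0533). Its further bright probe sets gave called rises of 0.63 and 0.50 over both knockdowns.

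The system A carriers SLC38A1 and SLC38A2 take up glutamine, alanine and other small neutral amino acids with sodium. SLC38A1 averaged 1779 ± 165 in knockdown1 and 2002 ± 62.4 in knockdown2, against 1409 ± 182 in control (SD, n = 3 each). It rose by 0.34 in knockdown1 (SE 0.13, limma adjusted p = 0.048), a call that ended under 11 of 20 alternatives (adjusted p up to 0.144), and by 0.51 in knockdown2 (SE 0.13, limma adjusted p = 0.00388). Those alternatives included leaving out knockdown1 replicate 1 or 3, any knockdown2 array, or control replicate 1 or 2. SLC38A2 had 3499.2, 3542.7 and 4629.7 in knockdown1 and 5818.1, 6083.0 and 5895.9 in knockdown2, against 4519.8, 4242.9 and 5101.4 in control. Its knockdown2 arrays were the highest of the 9, and its knockdown1 arrays overlapped control. SLC38A2 rose by 0.36 in knockdown2 (SE 0.13, limma adjusted p = 0.0315), a call that ended under 7 of 20 alternatives (any knockdown2 array or control replicate 1 or 2 left out among them), and was at -0.26 in knockdown1 (limma adjusted p = 0.125). Knockdown1 minus knockdown2 was -0.62 (SE 0.13, limma adjusted p = 0.000429).

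SLC38A1, SLC38A2 and SLC38A4 are neighbours on chromosome 12 in the RefSeq gene table. SLC38A4, a carrier of neutral and cationic amino acids in liver, averaged 29.9 ± 9.26 in knockdown1 and 24.8 ± 4.60 in knockdown2, against 41.3 ± 7.48 in control. The value of -0.59 for the mean of the knockdowns (SE 0.24, limma adjusted p = 0.057) did not pass the test. Of these neighbours, only SLC38A1 was called over both knockdowns.

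SLC38A5, a second system N carrier of glutamine, had 188.2, 227.4 and 280.3 in knockdown1 and 183.4, 209.4 and 220.0 in knockdown2, against 148.8, 160.6 and 157.7 in control. All knockdown arrays were above the control arrays. SLC38A5 rose by 0.55 in knockdown1 (SE 0.16, limma adjusted p = 0.00777), which ended without knockdown1 replicate 3 (limma adjusted p = 0.0653), and was at 0.39 in knockdown2 (SE 0.16, limma adjusted p = 0.0736). The system N carriers thus differed in direction, SLC38A3 falling and SLC38A5 rising over both knockdowns. The call of SLC38A5 there (0.47) ended with the knockdown arrays pooled and without control replicate 1 (limma adjusted p up to 0.0577).

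SLC38A11 moved to opposite sides of control. Its signals were 84.6, 94.1 and 93.3 in knockdown1 and 26.9, 37.4 and 31.6 in knockdown2, against 56.6, 57.9 and 80.2 in control. Every knockdown1 array was above and every knockdown2 array below the control arrays. SLC38A11 fell by 0.99 in knockdown2 (SE 0.20, limma adjusted p = 0.000346), was at 0.49 in knockdown1 (SE 0.20, limma adjusted p = 0.0578), and differed by 1.48 between knockdown1 and knockdown2 (SE 0.20, limma adjusted p = 1.46e-06). The knockdown1 value passed the test with the intensities as deposited, with quantile normalization and under other alternatives.

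SLC38A10 fell by 0.48 in knockdown1 (SE 0.15, limma adjusted p = 0.0113), with means of 169 ± 16.4 in knockdown1 and 229 ± 10.4 in knockdown2, against 237 ± 15.1 in control. A second bright probe set gave 0.14 in knockdown1 (limma adjusted p = 0.614), and the call ended on the mean over probe sets (limma adjusted p = 0.22) and without knockdown1 replicate 1. The contrast of knockdown1 with knockdown2, -0.44 (SE 0.15, limma adjusted p = 0.0262), ended under 6 of 20 alternatives, including each left-out knockdown array except knockdown1 replicate 3. SLC38A6, SLC38A9, the lysosomal arginine sensor, and SLC38A12 passed no test. SLC36A1, a proton-coupled exporter of small amino acids from lysosomes, had 184.9, 151.7 and 141.9 in knockdown1 and 108.2, 91.9 and 88.0 in knockdown2, against 129.4, 127.8 and 188.5 in control. It fell by 0.60 in knockdown2 (SE 0.17, limma adjusted p = 0.00912), which ended on the mean over its probe sets (-0.31, limma adjusted p = 0.61), and knockdown1 overlapped control. The difference between knockdown1 and knockdown2 was 0.72 (SE 0.17, limma adjusted p = 0.00225), and it too ended on that mean (limma adjusted p = 0.206). SLC36A4 passed no test.

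**Figure D4:**
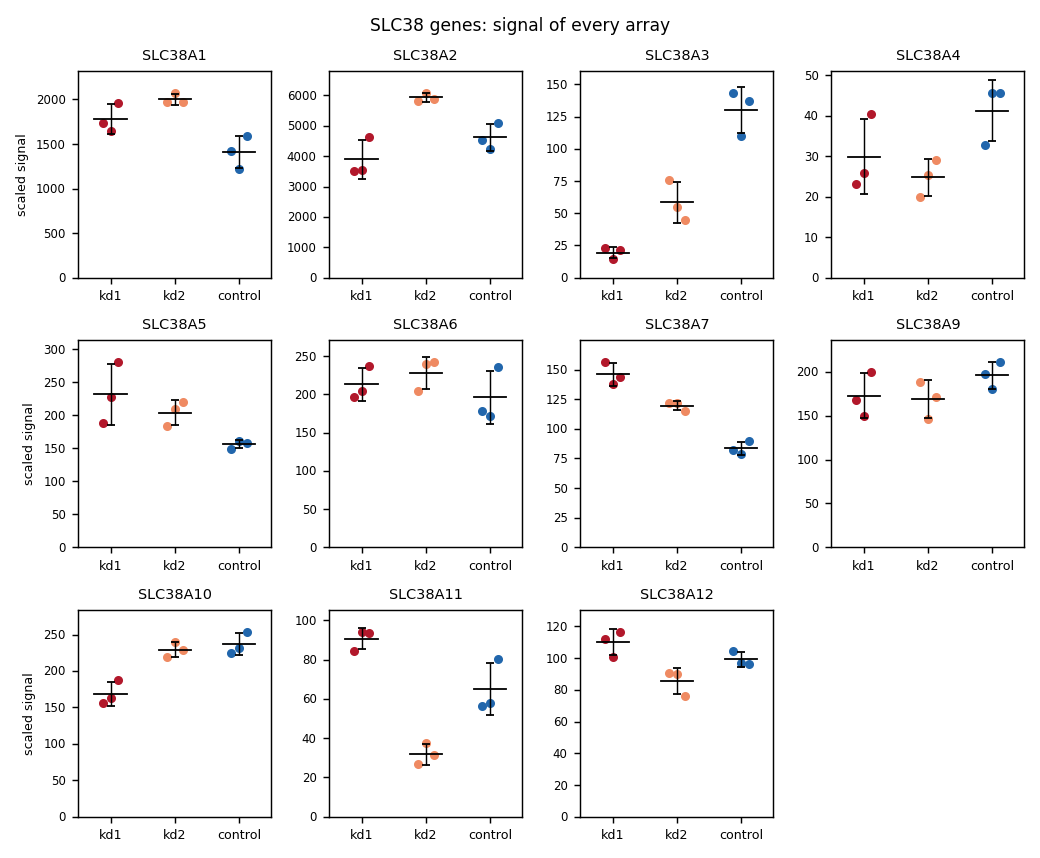
Scaled signal of every array for the 11 SLC38 genes, on linear axes from 0; kd1 is knockdown1, kd2 is knockdown2, points are arrays, horizontal bars are group means and error bars are SD (n = 3). SLC38A3 is lowest in knockdown1 and highest in control, SLC38A7 is highest in knockdown1, and SLC38A11 has knockdown1 above and knockdown2 below control.

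Among the SLC6 amino acid carriers, SLC6A14, which takes up neutral and cationic amino acids with sodium and chloride, had 39.3, 37.4 and 43.0 in knockdown1 and 13.9, 20.3 and 10.6 in knockdown2, against 13.7, 5.8 and 18.0 in control. The knockdown1 arrays stood clear of the rest, and knockdown2 overlapped control around the array median. SLC6A14 rose by 1.69 in knockdown1 (SE 0.39, limma adjusted p = 0.00114) and differed by 1.38 between knockdown1 and knockdown2 (SE 0.39, limma adjusted p = 0.00864). With the array median as pseudocount these were 1.05 and 0.91, both still called. SLC6A14 exceeded the array median on 3 knockdown1 arrays, 1 knockdown2 array and 1 control array. It would not have passed the filter without its knockdown1 arrays, so its rise and its difference between the knockdowns are a description. SLC6A17, a vesicle carrier of neurons, and SLC6A19, the neutral amino acid carrier of kidney and intestine, lay near the array median and passed no test.

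Among the SLC6 carriers of neurotransmitters and osmolytes, SLC6A6, the taurine transporter, averaged 609 ± 65.5 in knockdown1 and 750.3 ± 21.6 in knockdown2, against 523 ± 93.4 in control. It rose by 0.53 in knockdown2 (SE 0.15, limma adjusted p = 0.00714), and by 0.81 on the mean over its probe sets. SLC6A9, a glycine transporter, had 11.6, 4.7 and 8.1 in knockdown1 and 5.9, 12.2 and 14.5 in knockdown2, against 31.1, 24.6 and 17.0 in control. Its groups did not overlap between knockdown and control, with knockdown values around or under the array median. SLC6A9 fell by 1.45 in knockdown1 (SE 0.51, limma adjusted p = 0.0269), was at -1.10 in knockdown2 (limma adjusted p = 0.113), and lost the knockdown1 call without control replicate 1, control replicate 2 or knockdown1 replicate 2 (adjusted p up to 0.14). With the array median as pseudocount its knockdown1 value was -0.78. SLC6A9 exceeded the array median on 0 knockdown1 arrays, 1 knockdown2 array and 3 control arrays. It would not have passed the filter without control, so its fall is a description, and it was not tested under the stricter filter.

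SLC6A12, a carrier of betaine and GABA, had 6.0, 7.8 and 12.6 in knockdown1 and 16.1, 18.8 and 12.2 in knockdown2, against 19.8, 30.4 and 18.5 in control. The knockdown1 arrays were below all control arrays and below the array median, and knockdown2 overlapped control. It fell by 1.27 in knockdown1 (SE 0.44, limma adjusted p = 0.0265), a call that ended without knockdown1 replicate 1, knockdown1 replicate 2, control replicate 1 or control replicate 2 (adjusted p up to 0.123). With the array median as pseudocount it was -0.69. SLC6A12 exceeded the array median on 0 knockdown1 arrays, 2 knockdown2 arrays and 3 control arrays. Its fall too is a description, since it would not have passed the filter without control, and the stricter filter left it out. SLC6A13, its neighbour on chromosome 12 and a related GABA carrier, passed no test.

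SLC6A8, the creatine transporter, gave different results by probe set. The brightest had a log2 value of 0.38 for the mean of the knockdowns (SE 0.17, limma adjusted p = 0.0981), not past the threshold. The dimmer ones rose by 1.93 (SE 0.30, limma adjusted p = 5.26e-05) and 0.85 (SE 0.22, limma adjusted p = 0.00671). A probe set shared with the near-identical SLC6A10P pseudogene gave 0.29 (limma adjusted p = 0.295), so the level of SLC6A8 is uncertain here. SLC6A11, a GABA carrier, was not called from its brightest probe set, while a dimmer one fell by 0.88 in knockdown2 (limma adjusted p = 0.00621). For carriers called over both knockdowns, 21 of 23 further probe sets had the same sign, 12 of them past the threshold, and the 2 of opposite sign were not. For carriers called in knockdown1, 17 of 22 had the same sign, and for those called in knockdown2, 21 of 22. Between the knockdowns it was 15 of 18. None of opposite sign passed the threshold in these comparisons either.

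The uniporters of large neutral amino acids, SLC43A1 and SLC43A2, passed no test. Tested carriers without a call had log2 values between -0.88 and 0.56 over both knockdowns, between -0.90 and 0.51 in knockdown1 and between -1.10 and 0.60 in knockdown2. These ranges reach beyond some called values, and 13 of the 42 carriers (all tested genes 31.6%) had a mean signal under 50. The 14 genes below the filter were SLC1A1, SLC1A3, SLC1A6, SLC6A2, SLC6A3, SLC6A5, SLC6A7, SLC6A15, SLC6A16, SLC6A18, SLC6A20, SLC7A13, SLC7A14 and SLC43A3. The highest signal among them on any array was 23.9, for SLC6A3.

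Partners and carriers of amino acids in other families were read from a separate list, of which 11 were tested. Over both knockdowns 2 rose (18.2%, against 14.7% of all tested genes) and 3 fell (27.3%, against 17.9%), with a median of 0.05 (all genes -0.01). SLC16A10, a carrier of aromatic amino acids, averaged 22.1 ± 6.02 in knockdown1 and 173 ± 12.1 in knockdown2, against 373 ± 131 in control. SLC16A10 fell by 3.97 in knockdown1 (SE 0.21, limma adjusted p = 3.7e-14) and by 1.04 in knockdown2 (SE 0.21, limma adjusted p = 0.000285), in the same order of groups as SLC38A3 and SLC1A2. CLTRN, the collectrin that brings SLC6A19 and its relatives to the kidney cell surface, averaged 157 ± 24.3 in knockdown1 and 47.4 ± 3.29 in knockdown2, against 32.4 ± 8.24 in control. CLTRN rose by 2.24 in knockdown1 (SE 0.20, limma adjusted p = 5.05e-10) and by 0.55 in knockdown2 (SE 0.20, limma adjusted p = 0.0357). SLC15A4, a lysosomal carrier of histidine and peptides, rose by 0.51 over both knockdowns (SE 0.15, limma adjusted p = 0.00789).

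Several of these carriers, SLC7A11, SLC7A5, SLC3A2 and SLC38A2 among them, are known targets of ATF4, the factor that answers amino acid shortage. Of the other 27 tested genes of that response, 3 rose (11.1%, against 14.7% of all tested genes) and 9 fell (33.3%, against 17.9%) over both knockdowns, with a median of -0.21. In knockdown1 5 rose (18.5%, against 14.3%) and 6 fell (22.2%, against 19.0%), near the all-gene shares. In knockdown2 2 rose (7.41%, against 13.7%) and 10 fell (37.0%, against 13.9%). Between the knockdowns, 9 were higher in knockdown1 (33.3%, against 10.5%) and 2 lower (7.41%, against 16.1%), with a median of 0.19 (all genes -0.03). PHGDH, the first enzyme of serine synthesis, fell by 1.43 in knockdown1 (SE 0.15, limma adjusted p = 7.49e-09) and by 2.01 in knockdown2 (SE 0.15, limma adjusted p = 2.6e-11). VLDLR, a lipoprotein receptor, fell by 1.44 over both knockdowns (SE 0.14, limma adjusted p = 5.17e-09). TRIB3, a pseudokinase that ATF4 induces, went against the majority and rose by 0.70 (SE 0.13, limma adjusted p = 0.000128). Asparagine synthetase, ASNS, was picked after its values were seen, and lay on opposite sides of control like SLC38A11. ASNS averaged 1641 ± 139 in knockdown1 and 828 ± 92.5 in knockdown2, against 1182 ± 141 in control. It rose by 0.48 in knockdown1 (SE 0.14, limma adjusted p = 0.00824) and fell by 0.51 in knockdown2 (SE 0.14, limma adjusted p = 0.00588).

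Of 32 tested genes of amino acid sensing at the lysosome, 4 rose (12.5%, against 14.7% of all tested genes) and 7 fell (21.9%, against 17.9%) over both knockdowns, with a median of -0.08. The list lay near the all-gene shares in that comparison. In knockdown1 6 rose (18.8%, against 14.3%) and 7 fell (21.9%, against 19.0%). In knockdown2 1 rose (3.12%, against 13.7%) and 5 fell (15.6%, against 13.9%). Between the knockdowns, 4 were higher in knockdown1 (12.5%, against 10.5%) and 7 lower (21.9%, against 16.1%). FNIP2, a partner of folliculin, rose by 1.14 over both knockdowns (SE 0.13, limma adjusted p = 1.28e-07). CASTOR2, of the arginine sensor family, fell by 1.62 in knockdown1 (SE 0.24, limma adjusted p = 5.75e-06) and was at -0.17 in knockdown2 (limma adjusted p = 0.673). SEC13, shared by the nuclear pore, vesicle coats and the GATOR complex, fell by 1.37 in knockdown1 (SE 0.15, limma adjusted p = 3.99e-08) and was at -0.25 in knockdown2 (limma adjusted p = 0.242). The differences between knockdown1 and knockdown2 were -1.46 for CASTOR2 (limma adjusted p = 3.83e-05) and -1.11 for SEC13 (limma adjusted p = 1.86e-06).

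Of 11 tested enzymes that use the amino acids these carriers bring, 2 rose (18.2%, against 14.7% of all tested genes) and 3 fell (27.3%, against 17.9%) over both knockdowns, with a median of -0.06. In knockdown1 3 rose (27.3%, against 14.3%) and 5 fell (45.5%, against 19.0%). In knockdown2 2 rose (18.2%, against 13.7%) and 3 fell (27.3%, against 13.9%). Between the knockdowns, 1 was higher in knockdown1 (9.09%, against 10.5%) and 5 were lower (45.5%, against 16.1%). ASS1, the urea cycle enzyme that also rebuilds arginine, fell by 1.26 (SE 0.13, limma adjusted p = 2.14e-08). GLUD1, glutamate dehydrogenase, fell by 1.01 (SE 0.11, limma adjusted p = 4.72e-08). Glutathione reductase, GSR, fell by 1.44 in knockdown1 (SE 0.17, limma adjusted p = 7.01e-08) and was at -0.37 in knockdown2 (limma adjusted p = 0.1). GCLC, the catalytic subunit for the first step of glutathione synthesis, rose by 0.71 over both knockdowns (SE 0.10, limma adjusted p = 4.52e-06).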

How the data were processed

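Total RNA of 9 HepG2 samples was measured on 9 Affymetrix arrays of 54675 probe sets. The deposited values are array intensities on a linear scale, made by the authors with MAS5, per the submitters' processing notes, with no version given in the sources used here. Their 2% trimmed mean was 100.0 on every array. Because the medians differed by 1.28 times, over the limit of 1.2, each array was multiplied to the common median of 14.1. The deposited files hold no counts, so precision is limited by the 3 arrays per group.

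Of the probe sets, 41091 were annotated to 1 symbol, 1801 to several and 11721 to none, and 62 were controls. A gene was tested where a probe set of its own exceeded the array median on at least 3 arrays. It was read from the brightest of the probe sets that did. log2(scaled signal + 1.41), computed from the deposited intensities, was fitted with limma 3.58.1 in R 4.3.3 over the 3 groups, with a variance trend. P-values were Benjamini-Hochberg adjusted over 13056 genes, and the fit was tested on simulated data. Motifs were searched in RefSeq promoter windows.

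Carriers with a called change of at least 2-fold are given with every array, other called ones with their change. From each list, the 3 called members with the largest change over both knockdowns are named, and 1 against the majority. The members and lists were chosen with earlier results of these data known. Within groups arrays correlated at 0.973 to 0.978, and no 2 arrays were duplicates (at most 1.37% identical values). Alternatives were other scalings, pseudocounts, filters, probe set rules, fits and leaving out each array. Treating the knockdown arrays as 1 group was added after seeing the data.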

Additional observations from a re-analysis of the deposited data

Results flagged for a closer look

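For 14 carriers the change from control differed between the knockdowns by the test of that difference (limma, adjusted p under 0.05 over all tested genes). Values are log2, knockdown1 minus knockdown2. Lower in knockdown1 than in knockdown2 were SLC38A3 (-1.51), SLC7A2 (-1.12), SLC1A2 (-0.99), SLC38A2 (-0.62) and SLC38A10 (-0.44). Higher in knockdown1 were SLC38A11 (1.48), SLC6A14 (1.38), SLC7A7 (1.14), SLC36A1 (0.72), SLC7A11 (0.68), SLC7A6 (0.57), SLC3A2 (0.54), SLC7A5 (0.48) and SLC7A1 (0.39). SLC6A14 would not have passed the filter without its knockdown1 arrays, so its difference is a description. Both knockdowns are double knockdowns by their labels, and what sets them apart was not stated. Groups of 3 arrays are too small for a search for single arrays that stand apart.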

How the results depend on the processing

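Of 64 calls of a carrier in a comparison, 37 held under every alternative in which the carrier was tested, and 0 reversed. There were 21 alternatives in all, 9 of which left out an array, and at most 20 applied to any 1 call. SLC7A10 was tested under 16 of them, and its calls over both knockdowns and in knockdown1 are among the 37. The calls of SLC6A14 in knockdown1 and between the knockdowns are among the 37 too. SLC7A10 passed the filter through control alone, and SLC6A14 would not have passed it without knockdown1, so these calls remain a description. The count that rose over both knockdowns, 7, was 11 after centring arrays on tested genes, 2 when all knockdown arrays formed 1 group, and 4 to 8 when leaving out an array. The count that fell, 11, was 7 with the knockdown arrays pooled and 7 to 13 when leaving out an array. The count that rose in knockdown1, 6, was 11 with the values as deposited, with quantile normalization and after centring arrays on tested genes. The count that rose in knockdown2, 5, was 3 to 6 when leaving out an array. The causes of these changes were not tested. Of all genes, 1040 rose and 1165 fell with the knockdown arrays pooled, against 1916 and 2340. Without control replicate 3, 2586 rose and 1838 fell. Deviations of same-numbered arrays correlated at -0.02 to 0.13, and 5 of 9 matched best with their own number. These values do not settle whether replicate numbers pair the arrays. A replicate block gave 2261 genes higher and 2644 lower over both knockdowns, against 1916 and 2340 without it. The all-gene counts rose in each other comparison as well. With a replicate block, 7 carriers rose and 12 fell over both knockdowns, 8 rose and 9 fell in knockdown1, 6 rose and 13 fell in knockdown2, and 10 were higher and 6 lower in knockdown1 than in knockdown2. Signal near background limits the dim carriers most, and the stricter filter left 33. A fit on only the groups compared could not be run for the mean of both knockdowns, which uses all groups.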
